A study of Mus musculus with 28 samples.

Results

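The regions described here lie nearest to 4 lipid genes, Apoe, Ch25h, Fabp5 and Pparg, in an H3K27me3 ChIP-seq study of mouse microglia. They were chosen by the gene name in the table of counts, which gave 7 of 26326 regions: 1 at Apoe, 1 at Ch25h, 2 at Fabp5 and 3 at Pparg. The genes themselves were chosen on results of the comparisons below, so the values at these 7 regions are a description and carry no test. The 28 libraries of the series were 14 of H3K27me3 and 14 of input DNA, and 12 H3K27me3 libraries had raw counts per region, 3 in each of 4 groups. All microglia came from wild-type adult male C57BL/6 mice. The Basal group was sorted as CD44Low CD45Low CD11bLow cells from mice on a regular diet and is represented by replicates 3, 4 and 5. The other groups, each with replicates 1, 2 and 3, came from mice kept for 4 weeks on a diet with 0.2% cuprizone, a copper chelator that kills oligodendrocytes and causes demyelination. They were sorted as CD229-CD11c-, as CD229+CD11c- or as CD229+CD11c+ microglia. CD229 is a SLAM family receptor and CD11c an integrin subunit. Brains of several mice of a condition were pooled for sorting, and nothing in the labels says which replicates came from separate animals, so the errors measure the spread between these libraries, which may be technical.

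H3K27me3 is the histone mark laid down by Polycomb repressive complex 2 and is found at genes held silent. Microglia clear myelin debris, and the lipid they take up is carried, oxidised or sensed by products of genes such as these. Apoe encodes apolipoprotein E, the lipoprotein that carries cholesterol between brain cells. Ch25h encodes cholesterol 25-hydroxylase, which makes an oxysterol from cholesterol. Fabp5 encodes a carrier of fatty acids inside the cell, and Pparg encodes a nuclear receptor that binds fatty acid ligands. The study also measured RNA and open chromatin, which were not used here, so nothing below is a measure of expression.

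Apoe had 1 region, chr7:19694469-19699447 (mm10), 4979 bp long, centred 1440 bp inside the gene from the start site and annotated to the last exon of a transcript. It covered 63.2% of the gene's RefSeq span. The Ch25h region, chr19:34473375-34480066, was 6692 bp long, centred at -1572 bp from the start site and annotated as intergenic by its centre, but it covered 100% of the single-exon gene. The first Fabp5 region, chr3:10017030-10020747, was intergenic and centred 6303 bp after the start site, beginning 420 bp beyond the gene's end. The second Fabp5 region, chr3:9976853-9987637, was intergenic and centred at -30340 bp from the start site. The first Pparg region, chr6:115358355-115362942, was annotated as promoter, centred at -303 bp from the start site. The other Pparg regions were intergenic and centred at -38327 and -45268 bp from the start site, at chr6:115320943-115324306 and chr6:115311719-115319648, where they overlapped the predicted genes Gm38878 and Gm38877. Regions of a gene are numbered by their distance to the start site.

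The promoter sequences show the base composition under the marked regions, since CpG-rich promoters are the usual sites of Polycomb binding. RefSeq promoter windows (GRCm38.p6, the assembly of mm10) matched 3 of the 4 genes, Apoe, Ch25h and Pparg, with 7 start sites in all. The 250 bases before each start were read 5′ to 3′ on the gene's strand, and 6 of the 7 windows lay wholly inside a region of the gene. The windows shown are the most upstream of the Apoe windows, the only one of Ch25h and both of the Pparg windows in the promoter region. Each CpG is in capitals, and first and second start give the order of the Pparg windows. The RefSeq spans of Apoe and Pparg begin further upstream, at chr7:19701310 and chr6:115360879. The outermost starts of these genes are not among the windows.
Apoe, chr7:19699189-19699438, minus strand: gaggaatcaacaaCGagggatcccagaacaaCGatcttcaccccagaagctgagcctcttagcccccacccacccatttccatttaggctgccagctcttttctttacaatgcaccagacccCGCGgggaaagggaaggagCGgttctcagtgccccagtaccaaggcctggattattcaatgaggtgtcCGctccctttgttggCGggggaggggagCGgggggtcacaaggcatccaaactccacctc
Ch25h, chr19:34475149-34475398, minus strand: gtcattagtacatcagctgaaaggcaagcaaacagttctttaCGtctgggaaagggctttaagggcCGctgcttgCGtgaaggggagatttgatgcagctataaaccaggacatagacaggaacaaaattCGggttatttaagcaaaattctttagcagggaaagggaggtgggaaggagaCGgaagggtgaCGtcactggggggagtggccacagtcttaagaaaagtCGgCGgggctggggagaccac
Pparg first start, chr6:115360894-115361143, plus strand: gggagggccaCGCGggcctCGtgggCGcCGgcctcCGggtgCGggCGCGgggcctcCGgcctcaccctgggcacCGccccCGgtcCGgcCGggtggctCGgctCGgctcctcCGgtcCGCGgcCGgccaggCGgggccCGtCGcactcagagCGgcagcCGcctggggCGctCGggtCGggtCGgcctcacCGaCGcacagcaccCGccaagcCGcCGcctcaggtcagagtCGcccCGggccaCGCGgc
Pparg second start, chr6:115362099-115362348, plus strand: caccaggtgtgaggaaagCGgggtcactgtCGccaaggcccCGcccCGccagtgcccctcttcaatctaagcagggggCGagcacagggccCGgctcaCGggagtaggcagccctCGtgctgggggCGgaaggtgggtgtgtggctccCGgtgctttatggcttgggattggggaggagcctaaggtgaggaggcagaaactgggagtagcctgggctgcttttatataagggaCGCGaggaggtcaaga

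The windows differed in CpG content. The Apoe window held 8 CpG, an observed to expected ratio of 0.394, and the Ch25h window held 8 CpG with a ratio of 0.574. Both counts stood at percentile 59.7 of the 32851 promoter windows of the same length, whose median was 6. The windows before the other Apoe starts held 9 and 10 CpG, with ratios of 0.55 and 0.635, the last of them before the start from which the 1440 bp are counted. The first Pparg window held 38 CpG with a ratio of 0.896 and 82.4% G or C, at percentile 98.4 for CpG count, and the second held 12 CpG. The Pparg window outside the regions held 2 CpG. Motifs were searched by exact letters on both strands, and no matches to different motifs shared a base in the printed windows. The Ch25h window held the cyclic AMP response element, TGACGTCA, once, from base 190, and that motif was found in 1.55% of all windows. It also held the TATA box, TATAAA, from base 100, which was found in 12.4%, as did the second Pparg window from base 222 on the other strand. Each printed Pparg window held the nuclear receptor half-site AGGTCA once, a motif found in 14% of all windows. Each also held the GC box GGGCGG, once in the first and 2 times in the second, which was found in 32.7%. The printed Apoe window held the PU.1 core GAGGAA from base 1 and the second Pparg window held it from base 11, and it was found in 23.3%. The AP-1 site TGANTCA, found in 6.75% of all windows, had no match in the printed windows. A match describes the sequence only.

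In the authors' deposited table of the basal regions, made from Basal replicates 1 and 2 against input, the Pparg promoter stood apart from the other 6 regions. Its log2 fold of H3K27me3 over input was 2.66, at percentile 98.1 of 26325 basal regions, whose median was 1.49. The other 6 regions lay between 1.07 and 1.36. The Apoe region had the lowest, 1.07, at percentile 3.34, just above the log2 fold of 1 at which the authors called a region. In the authors' deposited table its log2 values were 6.74 and 7.94 in the inputs and 8.11 and 8.43 in the H3K27me3 libraries, so the inputs differed from each other by more than input replicate 2 differed from either H3K27me3 library. Ch25h stood at 1.33 and the Fabp5 downstream region at 1.36.

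The libraries held 7740002 to 11362168 tags in the regions. The region list came from Basal libraries, so sites marked in the cuprizone groups alone are not in it. The untagged replicate 3 stood apart from replicates 1 and 2, whose titles carry a PE150 tag, in each cuprizone group: the chi-square per degree of freedom between libraries was 1.68 to 1.94 for replicates 1 and 2 and 3.43 to 7.6 for pairs with replicate 3, where 1 would be counting noise alone. Within the Basal group, where replicate 3 is untagged, it was 2.57 to 3.56. What the tag marks is not given, and values within the tagged libraries (2 per group) and between the untagged ones (1 per group, no error) stand beside most results at the leading region of each gene. H3K27me3 regions lay nearest to 3 of 15 microglia genes (Sall1, Siglech and Olfml3), 2 of 8 genes of peripheral macrophages or monocytes and 4 of 10 oligodendrocyte genes. The other 12 microglia genes, Cx3cr1, P2ry12 and Tmem119 among them, had none. These counts stand without the share of all genes that have a region, so they do not check cell identity.

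Levels are tag counts scaled to TMM-adjusted library size (CPM), and each log2 fold change is given ± its standard error (SE) from edgeR with 3 libraries per group. Called means an adjusted p below 0.05, with the adjustment over all 26326 regions. Comparisons with the Basal group share its 3 libraries.

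The Apoe region carried the largest differences of the 7 in both CD229+ groups against Basal, and in CD229+CD11c+ its libraries were the least even of the 7. The Basal libraries, replicates 3, 4 and 5, had 19.9, 21.1 and 19.5 CPM, from 199, 229 and 226 tags. The CD229-CD11c- libraries, replicates 1, 2 and 3, had 13, 14.8 and 18.1 CPM, and the CD229+CD11c- libraries 6.56, 6.19 and 7.97 CPM. The CD229+CD11c+ libraries had 2.03, 14.2 and 3.1 CPM, from 20, 126 and 35 tags. The Basal libraries lay above those of CD229-CD11c-, which lay above those of CD229+CD11c-, with no overlap. In CD229+CD11c+, replicates 1 and 3 lay below every other library of the series with counts, while replicate 2 lay within the range of CD229-CD11c-.

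Against Basal, the log2 fold change at Apoe was -0.40 ± 0.36 for CD229-CD11c- and was not called, with -0.55 within the tagged libraries and -0.14 between the untagged ones. This error takes in the uneven CD229+CD11c+ libraries, which are not in that comparison. The log2 fold change was -1.54 ± 0.39 for CD229+CD11c-, called 2.92-fold lower, and -1.70 ± 0.40 for CD229+CD11c+, called 3.24-fold lower. The CD229+CD11c- difference was -1.66 within the tagged libraries and -1.32 between the untagged ones. The CD229+CD11c+ difference was -1.36 within the tagged libraries, which include replicate 2, and -2.69 between the untagged ones. Without CD229+CD11c+ replicate 2 it was -2.95 ± 0.22. The call was lost without Basal replicate 4 (-1.66), without CD229-CD11c- replicate 3 (-1.70) and without CD229+CD11c+ replicate 1 (-1.27). It was also lost with DESeq2 (-1.65) and with the 2 groups alone. The CD229+CD11c- call was lost with DESeq2 (-1.54) and without CD229-CD11c- replicate 3 (-1.54), and both calls were lost with the PE150 tag as a covariate or in the tagged libraries alone. A region for which DESeq2 gave no adjusted p was counted as not called, so a loss with DESeq2 need not be a failed test.

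Within the cuprizone groups, the Apoe region was lower by -1.15 ± 0.40 (log2) in CD229+CD11c- and by -1.30 ± 0.41 in CD229+CD11c+ than in CD229-CD11c-, and neither was called. The untagged libraries differed by -1.18 and -2.55. The CD229+CD11c- difference was called without CD229+CD11c+ replicate 1 (-1.15) or replicate 2 (-1.15), which enter only the shared estimate of the spread, and with the 2 groups alone (-1.14). Without CD229+CD11c+ replicate 2 the CD229+CD11c+ difference was -2.56 and was called. Between CD229+CD11c+ and CD229+CD11c- the difference was -0.15 ± 0.44, with a 95% interval from -1.09 to 0.78. Without replicate 2 it was -1.41 ± 0.24 and was called, whereas without replicate 1 it was 0.27 and without replicate 3 it was 0.20, neither called. It was 0.31 within the tagged libraries, -1.36 between the untagged ones and 0.04 with offsets for each library's trend with basal enrichment and tag density.

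The spread of the CD229+CD11c+ libraries at Apoe was the widest of all 26326 regions in that group. Their range was 2.69 on the log2 CPM scale, against a median of 0.255 over all regions, and the next widest region, near B020031M17Rik, had 2.14 from 4, 10 and 28 tags. In the other groups Apoe was ordinary, with a range of 0.11 in Basal, 0.47 in CD229-CD11c- and 0.35 in CD229+CD11c-. Over all regions, CD229+CD11c+ replicate 2 was nearer to replicate 1 than either was to replicate 3, with a chi-square per degree of freedom of 1.94 against 3.43 and 4.01. The source of the high value in replicate 2 was not tested.

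**Figure D1:**
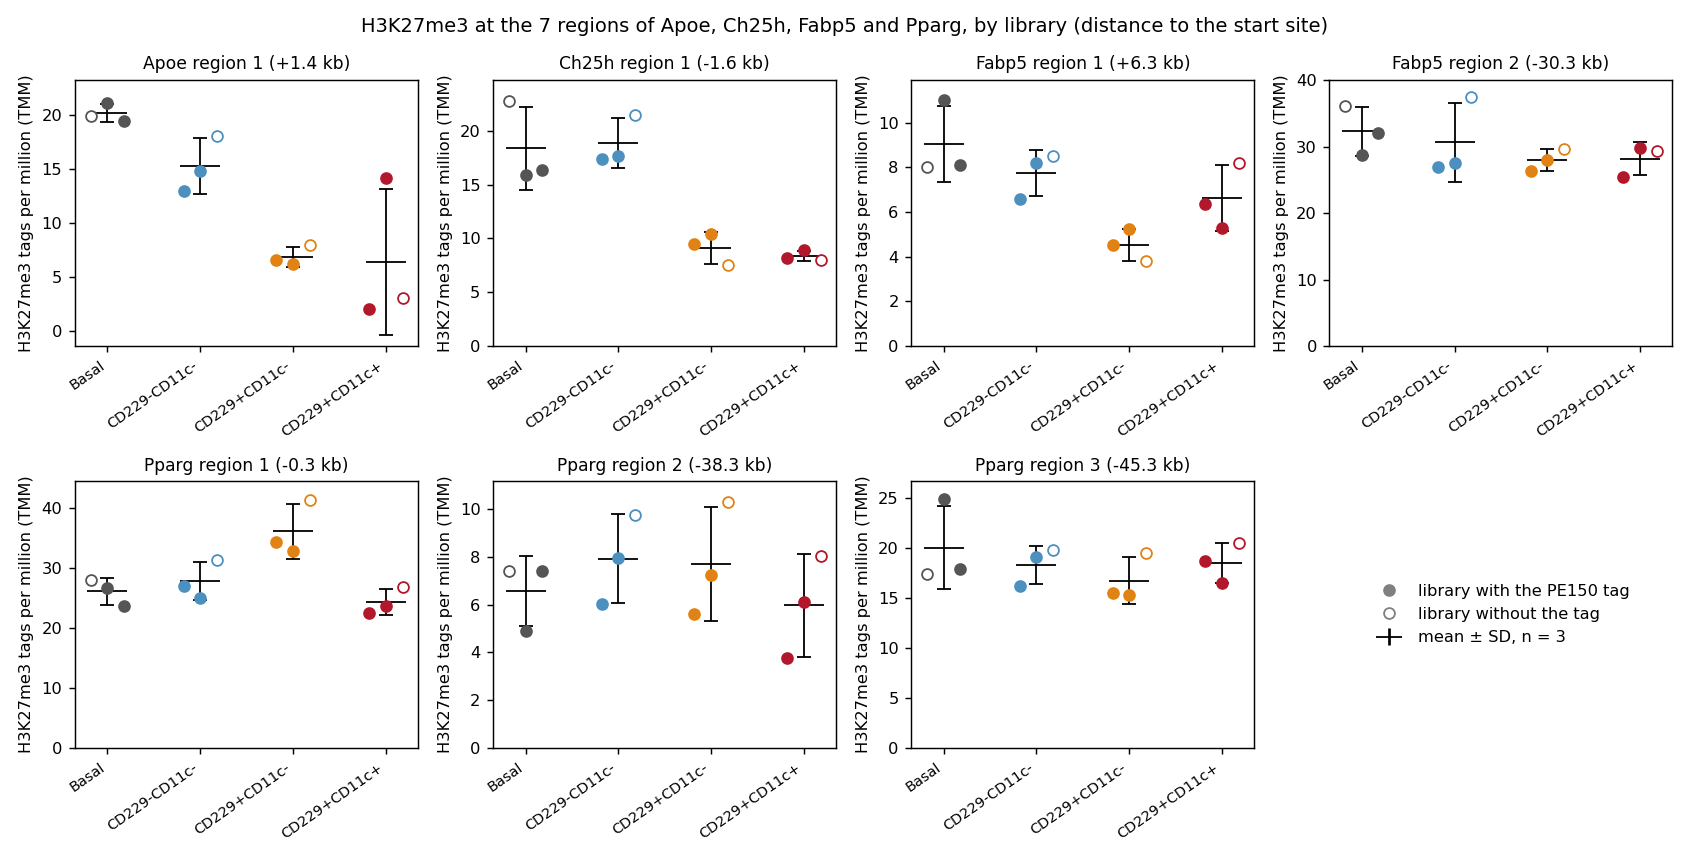
H3K27me3 level (TMM-scaled CPM, linear axis) of each of the 12 libraries at the 7 regions, by group; filled points carry the PE150 tag, open points do not, and bars are mean ± SD of 3 libraries. In CD229+CD11c+ the Apoe libraries stand at 2.03, 14.2 and 3.1, whereas the Ch25h libraries stand between 7.96 and 8.92.

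**Figure D2:**
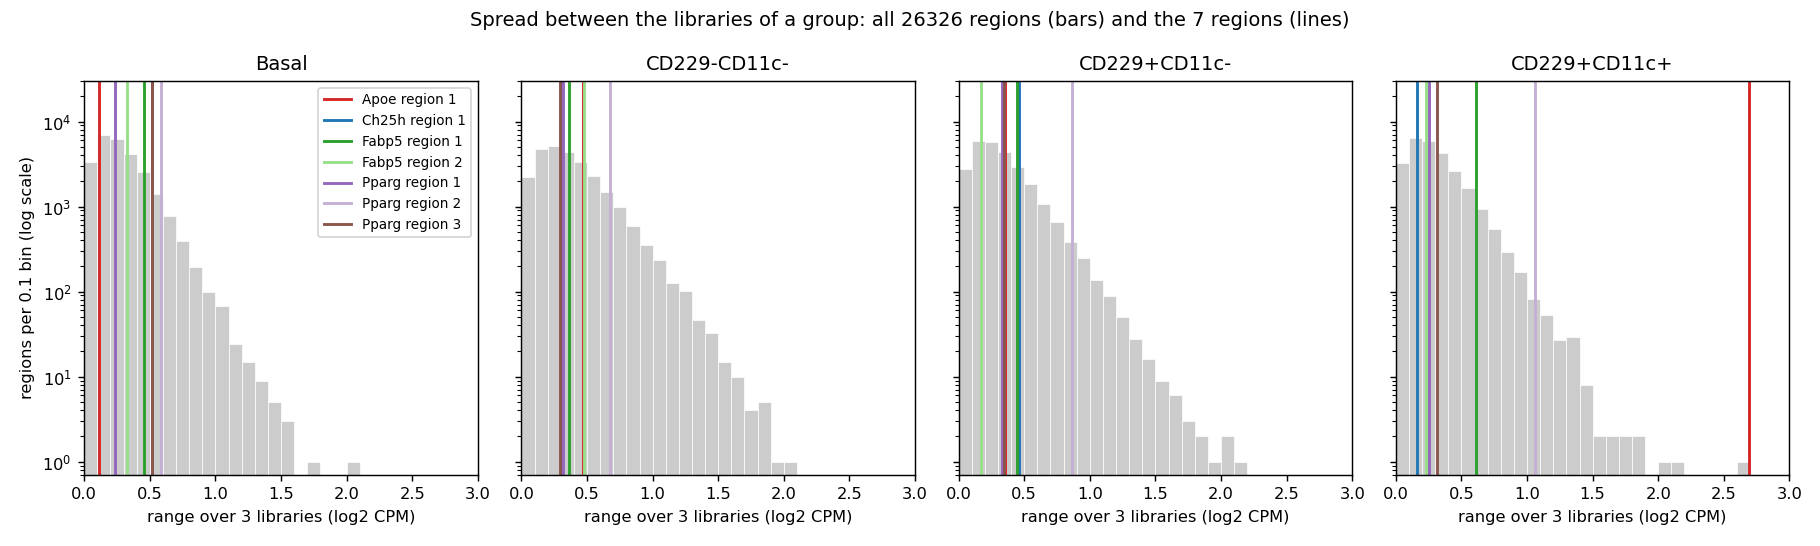
Range between the 3 libraries of a group (log2 CPM) for all 26326 regions (bars, log count axis) and for the 7 regions (lines), in each of 4 groups. The Apoe line lies at 2.69 in CD229+CD11c+, beyond every other region, and within the bulk of regions in the other groups.

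The Ch25h region was lower in both CD229+ groups, and CD229-CD11c- overlapped Basal. The Basal libraries had 22.8, 15.9 and 16.4 CPM and the CD229-CD11c- libraries 17.4, 17.7 and 21.5 CPM. The CD229+CD11c- libraries had 9.45, 10.4 and 7.52 CPM, and the CD229+CD11c+ libraries 8.2, 8.92 and 7.96 CPM. All 6 CD229+ libraries lay below all 6 others, and within each of those sets the groups overlapped. Tags ran from 67 to 98 in the CD229+ libraries and from 140 to 228 in the others.

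Against Basal, the log2 fold change at Ch25h was 0.04 ± 0.16 in CD229-CD11c-, not called, with a 95% interval from -0.28 to 0.37. It was -1.01 ± 0.17 in CD229+CD11c- and -1.13 ± 0.17 in CD229+CD11c+, both called lower, 2.01-fold and 2.2-fold. Against CD229-CD11c-, the differences were -1.05 ± 0.17 and -1.18 ± 0.17, both called lower, and between the untagged libraries they were -1.51 and -1.43. CD229+CD11c+ differed from CD229+CD11c- by -0.13 ± 0.18, not called, with a 95% interval from -0.51 to 0.25. These 4 calls held in each of the 19 or 21 alternative fits. Not all of these fits are separate checks: the one without the low-count filter repeats the main fit, and some leave out a library of neither group compared. The size varied with the PE150 tag: CD229+CD11c- against Basal was -0.71 within the tagged libraries and -1.60 between the untagged ones, and CD229+CD11c+ against Basal was -0.92 and -1.52.

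At Fabp5 only the region just beyond the 3′ end of the gene was called, and it was called in CD229+CD11c-. Its Basal libraries had 8, 11 and 8.11 CPM, and its CD229-CD11c- libraries 6.57, 8.2 and 8.51 CPM. The CD229+CD11c- libraries had 4.53, 5.26 and 3.82 CPM, and the CD229+CD11c+ libraries 6.38, 5.3 and 8.22 CPM. The CD229+CD11c- libraries were the lowest 3 of the 12, and CD229+CD11c+ overlapped Basal. Its tags were few, from 34 to 120 a library.

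Against Basal, the log2 fold change at this Fabp5 region was -0.22 ± 0.20 for CD229-CD11c- and -0.44 ± 0.20 for CD229+CD11c+, neither called. For CD229+CD11c- it was -0.997 ± 0.22, a level 2-fold lower, and it was called in each of the 19 alternative fits, not all of them separate checks. The CD229+CD11c- value was -0.97 within the tagged libraries and -1.07 between the untagged ones. CD229+CD11c+ against Basal was -0.70 within the tagged libraries, where it was called, and 0.04 between the untagged ones. CD229+CD11c- was lower than CD229-CD11c- by -0.77 ± 0.22 and called. That call was lost without CD229-CD11c- replicate 2 (-0.74) or 3 (-0.70), without CD229+CD11c- replicate 1 (-0.77) or 3 (-0.67), within the tagged libraries (-0.59), with the 2 groups alone (-0.76) and with the trend offsets (-0.68). Between the untagged libraries it was -1.16. CD229+CD11c+ was 0.56 ± 0.22 above CD229+CD11c- and not called, although the libraries did not overlap, with 0.27 within the tagged libraries and 1.11 between the untagged ones.

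The upstream Fabp5 region was not called in any comparison. Its mean was 32.3 ± 3.67 CPM for Basal and 30.7 ± 5.92 for CD229-CD11c-. It was 28.1 ± 1.65 CPM for CD229+CD11c- and 28.2 ± 2.41 for CD229+CD11c+ (SD, n = 3 each), and neighbours in the order of the means overlapped. Its log2 fold changes against Basal were -0.07 ± 0.13, -0.20 ± 0.13 and -0.20 ± 0.13 for the cuprizone groups as listed.

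The Pparg promoter was higher in CD229+CD11c-, the group in which the Apoe, Ch25h and Fabp5 downstream regions were lower. The Basal libraries had 28, 26.7 and 23.7 CPM and the CD229-CD11c- libraries 27, 25.1 and 31.3 CPM. The CD229+CD11c- libraries had 34.3, 32.8 and 41.4 CPM, and the CD229+CD11c+ libraries 22.5, 23.7 and 26.8 CPM. The CD229+CD11c- libraries were the highest 3 of the 12, and the other 3 groups overlapped.

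Against Basal, the log2 fold change at the promoter was 0.09 ± 0.12 for CD229-CD11c- and -0.10 ± 0.12 for CD229+CD11c+, neither called. For CD229+CD11c- it was 0.47 ± 0.12, called 1.39-fold higher, with 0.42 within the tagged libraries and 0.56 between the untagged ones. The call was lost without Basal replicate 5 (0.40) and without CD229+CD11c- replicate 3 (0.36). It was also lost with scaling to library totals (0.33), which moves the median of all regions to -0.16 in this comparison. With the trend offsets the difference was 0.05 ± 0.11, not called. CD229+CD11c- was 0.38 ± 0.12 above CD229-CD11c- and not called, and it was called in 5 of 21 alternative fits. These were without CD229-CD11c- replicate 3 (0.47), with DESeq2 (0.39), with the PE150 tag as a covariate (0.38), within the tagged libraries (0.37) and with the replicate number as a block in the 9 cuprizone libraries (0.37).

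CD229+CD11c+ was lower than CD229+CD11c- at the Pparg promoter by -0.57 ± 0.12, which was called, with -0.54 within the tagged libraries and -0.63 between the untagged ones. This call was lost without CD229+CD11c- replicate 1 (-0.61), 2 (-0.63) or 3 (-0.46), without CD229+CD11c+ replicate 1 (-0.52) or 2 (-0.55), with DESeq2 (-0.58), with scaling to library totals (-0.50) and with the trend offsets (-0.34). The upstream Pparg regions were not called in any comparison. Region 2 had 3.75 to 10.3 CPM over the 12 libraries and region 3 had 15.3 to 24.9 CPM, and the groups overlapped at both. Within the tagged libraries alone, region 3 was called lower in CD229+CD11c- against Basal (-0.47).

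**Figure D3:**
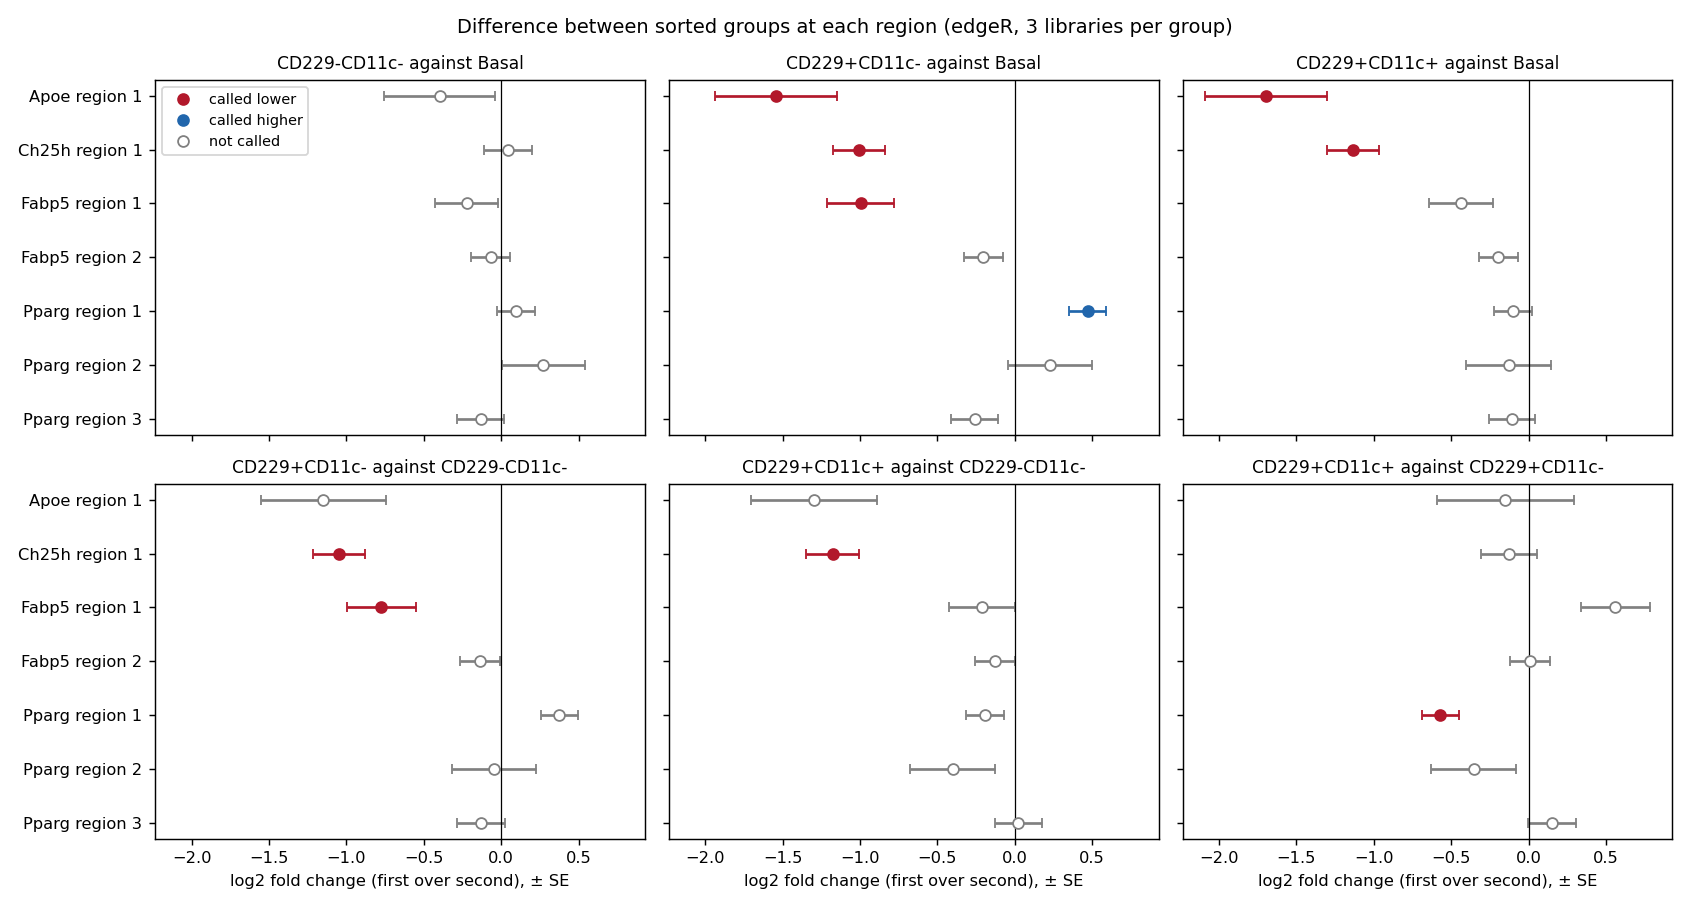
Log2 fold change ± SE (3 libraries per group) at the 7 regions in the 6 comparisons; filled red points were called lower, filled blue higher, open gray points were not called. Ch25h was called in 4 comparisons, and the Pparg promoter was called higher in CD229+CD11c- against Basal (0.47) and lower in CD229+CD11c+ against CD229+CD11c- (-0.57).

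Counted over the 7 regions, CD229-CD11c- against Basal had 0 called lower and 0 called higher, and over all regions 0% were called lower and 0% higher. In that comparison edgeR gave an unadjusted p under 0.05 for 1103 of the 26326 regions, and DESeq2 also called 0. Other settings did call regions there: 916 in the tagged libraries (2 per group), 33 with the PE150 tag as covariate and 30 without CD229-CD11c- replicate 3. CD229+CD11c- against Basal had 3 of the 7 called lower (3.47% of all regions) and 1 called higher (9.52% of all regions). CD229+CD11c+ against Basal had 2 called lower (1.47% of all regions) and 0 higher (4.33% of all regions). CD229+CD11c- against CD229-CD11c- had 2 called lower (1.6% of all) and 0 higher (6.75% of all). CD229+CD11c+ against CD229-CD11c- had 1 called lower (0.152% of all) and 0 higher (0.395% of all). CD229+CD11c+ against CD229+CD11c- had 1 called lower (0.771% of all) and 0 higher (0.0532% of all). Because the genes were chosen from these comparisons, nothing is read from the gap between the shares.

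Per kilobase of region, Basal H3K27me3 was 5.7 ± 0.477 CPM per kb at the Pparg promoter, 4.05 ± 0.163 at Apoe, 2.75 ± 0.575 at Ch25h and 2.43 ± 0.463 at the Fabp5 downstream region (SD, n = 3). In CD229+CD11c- the Pparg promoter stood at 7.89 ± 0.998, and Apoe, Ch25h and the Fabp5 downstream region stood close together at 1.39 ± 0.188, 1.36 ± 0.219 and 1.22 ± 0.194 CPM per kb. In CD229+CD11c+ the same regions stood at 5.3 ± 0.484, 1.29 ± 1.36, 1.25 ± 0.0742 and 1.78 ± 0.397. Input was not subtracted, so these levels do not rank the regions by enrichment: Apoe lay above Ch25h per kb in Basal but had the lowest fold over input of the 7.

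No other region within 200 kb of Apoe or Ch25h was called lower against Basal. Within 200 kb of Apoe lay 9 other regions, nearest to Nkpd1, Bcam, Cblc, Gm19345, Ceacam16 and Ceacam19. Their log2 fold changes against Basal ran from -0.26 to 0.50 in CD229+CD11c-, where 3 were called, and from -0.15 to 0.30 in CD229+CD11c+, where 1 was called. All of those called were higher: near Nkpd1, on one side of Apoe, 0.50 ± 0.08 (adjusted p 0.00013) in CD229+CD11c-, and near Bcam, on the other side, 0.32 ± 0.08 (adjusted p 0.012). Within 200 kb of Ch25h lay 3 other regions, 1 near Fas and 2 near Ifit1, and none was called. Their log2 fold changes against Basal ran from -0.21 to 0.01 in CD229+CD11c- and between -0.19 and 0.12 in CD229+CD11c+. Around Fabp5 lay 3 other regions, 2 near Gm9833 and 1 near Pmp2, a gene of the same fatty acid binding protein family. None of them was called, and the lowest was near Gm9833, -0.51 ± 0.19 in CD229+CD11c- (adjusted p 0.089). Around Pparg lay 9 other regions, some of them nearest to Syn2 or Timp4. One, near Timp4, was called in CD229+CD11c- against Basal, lower by -0.64 ± 0.21 (adjusted p 0.046), the opposite direction to the Pparg promoter.

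**Figure D4:**
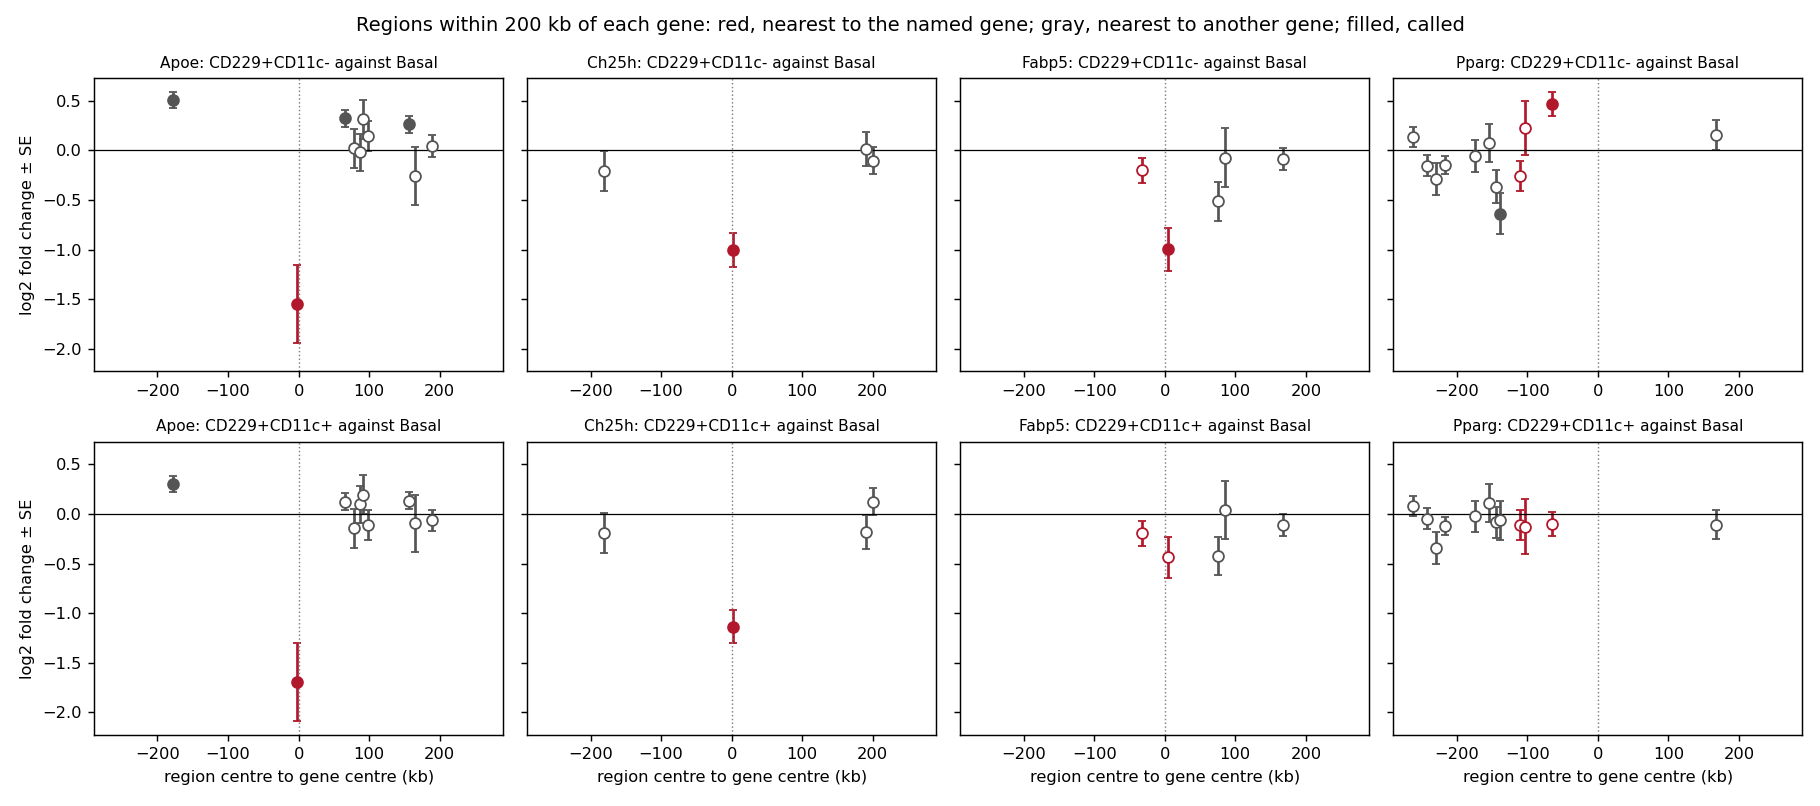
Log2 fold change ± SE against Basal of every region within 200 kb of the 4 genes, by distance from region centre to gene centre (kb, along the chromosome), for CD229+CD11c- (top) and CD229+CD11c+ (bottom). Red points are regions nearest to the named gene and filled points were called; at Apoe the neighbours lie between -0.26 and 0.50 in CD229+CD11c- while the Apoe region lies at -1.54.

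Other genes of lipid handling were described from 6 lists of 168 genes, of which 97 had at least 1 region, 255 regions in all. Against Basal, 33 regions were called higher and 10 lower in CD229+CD11c-, 12 higher and 5 lower in CD229+CD11c+, and 0 in either direction in CD229-CD11c-. Over all regions 9.52% were called higher and 3.47% lower in CD229+CD11c-, and 4.33% and 1.47% in CD229+CD11c+, and these are the shares to set beside the counts of each list below. Within the tagged libraries the list calls numbered 69 in CD229+CD11c- and 49 in CD229+CD11c+. Calls over all regions also rose there, from 3419 to 5532 and from 1525 to 4274. The median log2 fold change of the 255 regions was -0.02 in CD229+CD11c-, against -0.03 over all regions, and 0.01 in CD229+CD11c+, against -0.01 over all. With scaling to library totals the split in CD229+CD11c- turned to 24 higher and 36 lower, and that in CD229+CD11c+ to 7 higher and 9 lower. That scaling called 5367 and 1483 regions over all. The count in CD229+CD11c+ fell to 11 without Basal replicate 3, to 4 without Basal replicate 4, to 5 without CD229+CD11c+ replicate 1 and to 7 without CD229+CD11c+ replicate 2, and rose to 36 without CD229-CD11c- replicate 3. Over all regions the calls in these fits were, in the same order, 869, 442, 459, 599 and 2901.

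In the list of sterol efflux and lipoprotein handling, to which Apoe belongs by function, 5 of 18 regions were called higher and 1 lower in CD229+CD11c- against Basal. The named regions below are single regions of their genes, and the other regions of a gene can differ. Genes below were picked by the smallest p against Basal among the called regions of their list, apart from some added outside this rule. The added regions are marked as named after their values were seen. Both sets were picked from these data, so their adjusted p were selected by result. The region near Abcg4, which encodes a sterol transporter, was 0.50 ± 0.09 (adjusted p 0.00062). The 2 regions of Lipg, which encodes endothelial lipase, lay 7280 and 81283 bp from its start. They were 0.46 ± 0.07 and 0.40 ± 0.07 (adjusted p 9.15e-05 and 0.00039). Both Lipg regions were also called in CD229+CD11c+, at 0.25 ± 0.07 and 0.36 ± 0.07 (adjusted p 0.041 and 0.0043). The region called lower lay 26483 bp from the start of Scarb1, a receptor for high-density lipoprotein, and was -0.69 ± 0.21 (adjusted p 0.032). It was named after its values were seen.

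In the list of sterol synthesis and oxysterol genes, to which Ch25h belongs by function, 3 of 25 regions were called higher and 2 lower in CD229+CD11c-, and 0 higher and 1 lower in CD229+CD11c+. Cyp46a1, which encodes cholesterol 24-hydroxylase, another oxysterol-forming enzyme, was 0.49 ± 0.09 in CD229+CD11c- (adjusted p 0.00062) at the region centred at -6047 bp from its start, and its other region was 0.52 ± 0.11 (adjusted p 0.0016). Their direction was opposite to that of Ch25h. A region 97966 bp from the start of Insig2, which encodes a protein that retains the sterol sensor in the endoplasmic reticulum, was called lower in both CD229+ groups, by -0.51 ± 0.10 (adjusted p 0.0014) and -0.37 ± 0.10 (adjusted p 0.033). The other region called lower in CD229+CD11c- also lay near Insig2, 109995 bp from its start, at -0.48 ± 0.14 (adjusted p 0.02), and was named after its values were seen.

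In the list of fatty acid binding, uptake and activation, to which Fabp5 belongs by function, 5 of 33 regions were called higher and 2 lower in CD229+CD11c-, and 1 higher and 1 lower in CD229+CD11c+. The region 6082 bp after the start of Fabp12, a family member near Fabp5 on chromosome 3 (chr3:10246575-10249712), had 9.75 ± 0.926 CPM in Basal, and 5.56 ± 0.581 and 5.56 ± 0.614 CPM in the CD11c- and CD11c+ subsets of CD229+ cells (SD, n = 3). Its log2 fold changes were -0.81 ± 0.18 (adjusted p 0.0035) and -0.80 ± 0.18 (adjusted p 0.01). The other 2 regions near Fabp12 were -0.26 and -0.29 in CD229+CD11c-, not called. Slc27a2, which encodes a fatty acid transport protein, was higher at the region 1367 bp after its start, 0.72 ± 0.08 (adjusted p 1.66e-06) and 0.49 ± 0.08 (adjusted p 0.00075), and its other region was -0.20 in CD229+CD11c-, not called. Crabp1, a binding protein for retinoic acid, was 0.49 ± 0.11 in CD229+CD11c- (adjusted p 0.0036) at the region 2175 bp after its start, and its other 2 regions were -0.02 and 0.18, not called. The other region called lower in CD229+CD11c- lay near Fabp2, the intestinal family member, at -0.71 ± 0.21 (adjusted p 0.027), and was named after its values were seen.

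In the list of lipid-sensing nuclear receptors and coregulators, to which Pparg belongs by function, 9 of 89 regions were called higher and 5 lower in CD229+CD11c-, and 4 higher and 1 lower in CD229+CD11c+. Esrrg, which encodes an orphan receptor, was 0.75 ± 0.09 in CD229+CD11c- (adjusted p 5.34e-06) and 0.59 ± 0.09 in CD229+CD11c+ (adjusted p 0.00048) at the region centred on -398 bp from a start site. Its other 4 regions were -0.44, -0.19, -0.15 and 0.00 in CD229+CD11c-, not called. Nr5a2, which encodes the liver receptor homologue, was 0.56 ± 0.09 and 0.46 ± 0.09 at its promoter (adjusted p 7.68e-05 and 0.0027). Rara, a retinoic acid receptor, was 0.50 ± 0.08 in CD229+CD11c- (adjusted p 0.00013). The 5 regions called lower in CD229+CD11c-, were named after their values were seen. Of these 5, 2 lay at -116818 and -364791 bp from Nr5a2 (-0.36 and -0.71). Another 2 lay at -24725 and -7235 bp from Rxrg, a retinoid X receptor (-0.47 and -0.48). The last lay at -11551 bp from Nr4a3, an orphan receptor (-0.73), and adjusted p ran from 0.0025 to 0.026 over the 5. In CD229+CD11c+ the 1 called lower lay at -17000 bp from Nr4a2, at -0.51 ± 0.14 (adjusted p 0.042), and was also named after its values were seen.

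Of the remaining lists, lipoprotein and lipid receptors had 5 of 35 regions called higher and 0 lower in CD229+CD11c-, and 5 higher and 1 lower in CD229+CD11c+. S1pr5, a receptor for sphingosine 1-phosphate, was 0.77 ± 0.08 and 0.39 ± 0.08 (adjusted p 1.33e-06 and 0.0062). Vldlr, a lipoprotein receptor that binds apolipoprotein E, was 0.62 ± 0.16 and 0.75 ± 0.16 (adjusted p 0.014 and 0.0091), and Lrp2, another such receptor, was 0.53 ± 0.07 and 0.27 ± 0.07 (adjusted p 1.26e-05 and 0.021) at the region centred at -7954 bp. The other 2 Lrp2 regions were -0.43 and 0.03 in CD229+CD11c-, not called. Fatty acid synthesis and lipid droplet genes had 6 of 55 regions called higher and 0 lower in CD229+CD11c-, and 0 higher and 1 lower in CD229+CD11c+. Elovl4, a fatty acid elongase, was 0.51 ± 0.08 in CD229+CD11c- (adjusted p 0.00014), Fads2, a desaturase, was 0.62 ± 0.13 (adjusted p 0.0023) and Plin5, a lipid droplet coat protein, was 0.34 ± 0.08 (adjusted p 0.0043). The Elovl4 and Fads2 regions were those nearest their starts, and the other regions of these genes, 1 at Elovl4 (-0.16) and 2 at Fads2 (-0.10 and -0.09), were not called. Of those called lower in CD229+CD11c+, the receptor region lay near Ffar1, a fatty acid receptor (-0.54 ± 0.15, adjusted p 0.033), and the droplet-list region near Lpin1, a phosphatidate phosphatase (-0.29 ± 0.09, adjusted p 0.049). Both were named after their values were seen.

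Within the cuprizone groups, 24 of the 255 regions were called higher and 8 lower in CD229+CD11c- against CD229-CD11c-, against 6.75% and 1.6% of all regions, and with scaling to library totals these were 18 and 20. With the replicate number as a block, 38 were called higher and 18 lower, and over all regions 4595 were called, against 1876 in the same 9 libraries without the block. In CD229+CD11c+ against CD229-CD11c-, 2 were called higher and 0 lower, at Esrrg (0.48 ± 0.09, adjusted p 0.011) and S1pr5 (0.37 ± 0.08, adjusted p 0.037), against 0.395% and 0.152% of all regions. With the block, 18 were called higher and 5 lower, and over all regions 2025 were called, against 118 without it. In CD229+CD11c+ against CD229+CD11c-, 0 were called higher and 2 lower, at Elovl4 (-0.37 ± 0.08, adjusted p 0.034) and S1pr5 (-0.38 ± 0.08, adjusted p 0.029), against 0.0532% and 0.771% of all regions. These counts of 2 moved between 0 and 3 and between 0 and 12 when single libraries were left out. Over all regions the calls then ran from 44 to 271 and from 9 to 830.

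**Figure D5:**
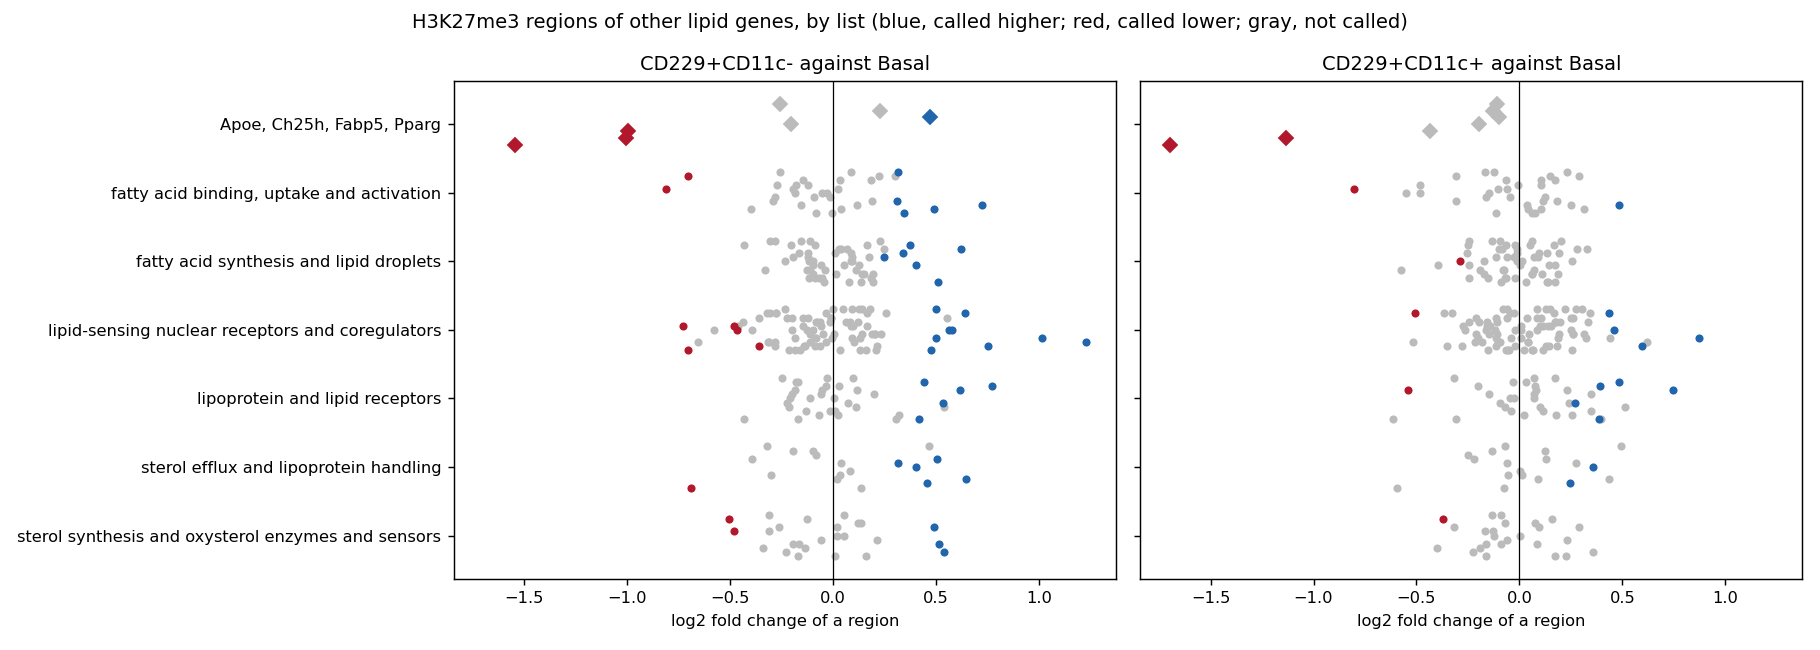
Log2 fold change against Basal of the 255 regions of other lipid genes by list, and of the 7 regions (diamonds, top), in CD229+CD11c- (left) and CD229+CD11c+ (right); blue was called higher, red lower, gray not called. In CD229+CD11c- 33 list regions are blue and 10 red, and the Apoe diamond lies at -1.54.

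The regions most like each of the 4 leading ones were taken from 13151 regions of at least median level by the root mean square (RMS) difference over the 3 log2 fold changes against Basal, a description over 4 groups. For Apoe the nearest was the region that the authors added at Bhlhe40 (annotated to 0610040F04Rik), with an RMS difference of 0.14, and the next was near C030034L19Rik with 0.45. This uses the Apoe value of -1.70 in CD229+CD11c+, which was -2.95 without replicate 2. The Bhlhe40 region had -0.18 in the double-negative subset, -1.43 in CD229+CD11c- and -1.76 in CD229+CD11c+. For Ch25h they were near 2210016L21Rik (0.21), Ptger4 (0.21), Baz2a (0.23), Flt1 (0.24) and Wdr19 (0.25). For the Fabp5 downstream region they were near Mir6979 (0.13), St3gal1 (0.13), Mir7081 (0.14), Slc2a6 (0.15) and Adarb1 (0.16). For the Pparg promoter they were closer, near Trerf1 (0.04), Azi2 (0.06), Nfatc1 (0.06), Gpr4 (0.06) and Tafa3 (0.07).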

How the data were processed

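H3K27me3 tags were counted per region in 12 libraries. The submitters' processing notes list fastp 0.20.0, HOMER, Bowtie2 2.3.4.1, DESeq2 and STAR 2.7.0f without their roles. Per the file headers, the authors called regions in mm10 with HOMER on Basal replicates 1 and 2 against input, at an adjusted p-value of 0.05 and a log2 fold of 1. The deposited table of raw counts (whole tags, not normalized) gave the main data. The deposited log2 values and log2 folds over input served for description. The deposited p-value columns, the authors' normalized signal, region size and score columns entered no test.

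The counts were tested here with edgeR 4.0.16 (R 4.3.3): filterByExpr, which removed 0 regions, TMM scaling, robust quasi-likelihood F-tests with 4 groups in 1 model, and Benjamini-Hochberg adjustment over 26326 regions. Log2 CPM used a prior count of 2. The script was tested on simulated data. DESeq2 1.42.0 and other settings were alternatives, and a region with no DESeq2 adjusted p was counted as not called. The genes and lists were chosen with earlier results of these data known. Named genes were the up to 3 called regions of each list with the smallest p against Basal, regions within 200 kb of the 4 genes, and the 5 most like regions. Replicate numbers, from the titles, were taken to pair CD229-CD11c- with each CD229+ group in the fit with a replicate block only. The main model held no replicate term. The ground was that deviations of same-numbered libraries of CD229-CD11c- and each CD229+ group correlated at 0.13 to 0.46 in all 3 pairs. Replicate 3 is also the untagged library there, and tagged libraries of different number correlated too. CD229-CD11c- replicate 2 stood at 0.25 with CD229+CD11c- replicate 1 and at 0.13 with CD229+CD11c- replicate 2. The correlations therefore cannot tell a shared number from the tag. Between the CD229+ groups 1 of 3 pairs was under 0.1 (0.083). Inputs of the 12 libraries were not used here. Some named regions are not reported here.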

Additional observations from a re-analysis of the deposited data

Results flagged for a closer look

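The difference between CD229+CD11c+ and CD229+CD11c- at the Pparg promoter, a log2 fold change of -0.57 ± 0.12 (edgeR, 3 libraries per group), differed between the cuprizone subsets: against Basal the promoter was 0.47 ± 0.12 in CD229+CD11c- and -0.10 ± 0.12 in CD229+CD11c+. The libraries of these subsets did not overlap (32.8 to 41.4 against 22.5 to 26.8 CPM). The call was lost in 9 of 21 alternative fits, and the direction was kept in all 21. Since Pparg was chosen from these comparisons, this is a description.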

How the results depend on the processing

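The direction of every call at the 7 regions was kept in all alternatives run. Of 840 alternative values 826 moved by less than the spread between replicates and 14 by more. That spread was the SD between single libraries, which leaving out 1 library can seldom exceed. Many of those fits left out a library of neither group compared, and the fit without the low-count filter repeated the main fit. The count of 826 is therefore no measure of stability. Calls among the 7 regions in CD229+CD11c+ against Basal (2) were 1 with DESeq2, with the 2 groups alone and with the PE150 tag as covariate. In CD229+CD11c- against CD229-CD11c- (2) they were 1 with trend offsets, and with the 2 groups alone still 2, Apoe in place of the Fabp5 downstream region. In CD229+CD11c+ against CD229+CD11c- (1) they were 0 with DESeq2, with library totals and with trend offsets.

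Calls among the 255 list regions are given with the calls over all regions in brackets. In CD229-CD11c- against Basal (0) the list calls were 12 in the tagged libraries (all regions 916). In CD229+CD11c- against Basal (43, all regions 3419) they were 69 in the tagged libraries (5532) and 26 with trend offsets (1890). In CD229+CD11c+ against Basal (17, all regions 1525) they were 38 with the 2 groups alone (2977), 51 with the tag as covariate (4538) and 49 in the tagged libraries (4274). In CD229+CD11c- against CD229-CD11c- (32, all regions 2199) they were 53 with the tag as covariate (4370) and 10 with trend offsets (760). In CD229+CD11c+ against CD229-CD11c- (2, all regions 144) they were 1 with library totals (110) and with the 2 groups alone (50). They were 19 with the tag as covariate (1638), 9 in the tagged libraries (933) and 0 with trend offsets (137). In CD229+CD11c+ against CD229+CD11c- (2, all regions 217) they were 10 with DESeq2 (668), 0 with library totals (28) and 11 with the 2 groups alone (631). They were 24 with the tag as covariate (1920), 18 in the tagged libraries (1397) and 0 with trend offsets (45). The list counts rose and fell with the calls over all regions, so nothing about lipid genes is read from them. The cause was not tested.

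Replicate numbers 1 to 3 are shared by the cuprizone groups, and deviations of same-numbered libraries correlated from 0.083 to 0.46 (9 pairs; 18 pairs of different number, -0.37 to 0.25). The lowest was between the CD229+ subsets, and 6 of 9 libraries correlated best with their own number. The replicate block below nevertheless covers all 9 cuprizone libraries, so it pairs the CD229+ subsets by number too. Between groups, replicates 1 and 2 correlated positively with each other and negatively with replicate 3. The correlations therefore cannot tell the replicate number from the PE150 tag. With the replicate block in the 9 cuprizone libraries, calls in CD229+CD11c- against CD229-CD11c- were 3 of the 7 regions, the Pparg promoter added, and 56 of the list regions; in CD229+CD11c+ against CD229-CD11c- 1 and 23; in CD229+CD11c+ against CD229+CD11c- 1 and 24. The same 9 libraries with no replicate block, added after the data were seen, gave 2 and 29, 1 and 2, and 0 and 1. Over all regions the calls, in the same order, were 4595, 2025 and 2199 with the block and 1876, 118 and 148 without it. The Basal libraries share only number 3 with the others, so no block was fitted there.

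Leaving out 1 library at a time moved the calls among the 7 regions between 0 and 0 in CD229-CD11c- against Basal, 3 and 4 in CD229+CD11c- against Basal, 1 and 2 in CD229+CD11c+ against Basal, 1 and 3 in CD229+CD11c- against CD229-CD11c-, 1 and 2 in CD229+CD11c+ against CD229-CD11c- and 0 and 1 in CD229+CD11c+ against CD229+CD11c-. Among the list regions, in the same order, they moved between 0 and 0, 29 and 51, 4 and 36, 23 and 35, 0 and 3, and 0 and 12. Over all regions they moved between 0 and 30, 2084 and 4589, 442 and 2901, 1532 and 2576, 44 and 271, and 9 and 830. Depth is low at the Fabp5 downstream region, with 34 to 120 tags a library, at Pparg region 2, with 37 to 101, and at the Apoe region in CD229+CD11c+, with 20 and 35 tags in replicates 1 and 3.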
